A study of Mus musculus with 29 samples.

Results

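The miR-99/100 and miR-125 families were described by their 10 mature miRNAs and the 10 hairpin entries of the same names, which made up 20 of the 5355 entries of the small RNA count table. The members were taken by name: mmu-miR-99a-5p, mmu-miR-99a-3p, mmu-miR-99b-5p, mmu-miR-99b-3p, mmu-miR-100-5p, mmu-miR-100-3p, mmu-miR-125a-5p, mmu-miR-125b-5p, mmu-miR-125b-1-3p and mmu-miR-125b-2-3p, written without the mouse prefix from here on. Small RNA was sequenced from gonadal white adipose tissue (gWAT) of genetically identical New Zealand Obese (NZO) mice, strain NZO/HIBomDife, a polygenic model of obesity and type 2 diabetes. All mice were female, 10 weeks old and fed a high-fat diet. From a risk score the study had sorted them, before hyperglycemia set in, into diabetes-prone mice (DP, n = 15) and diabetes-resistant mice (DR, n = 14), which the labels describe as healthy and as the control group. The grouping is thus a prediction made in live mice and no genotype or treatment separates the groups.

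The main difference lay inside the miR-99/100 family. miR-100-5p was lower in DP than in DR mice by a log2 fold change of -0.32 ± 0.053 (SE), while miR-99a-5p, which differs from it by 1 base and was far more abundant, did not pass the test (-0.01 ± 0.039). The number of miR-99a-5p counts per miR-100-5p count was 9.07 in DP and 7.33 in DR mice, and no DP mouse overlapped with any DR mouse in this ratio. Such a lack of overlap was seen for 0.234% of all pairs of tested mature miRNAs, whatever their abundance. The minor arm miR-99a-3p was higher in DP mice, by 0.35 ± 0.078. No mature member of the miR-125 family passed the test. Of all 574 mature miRNAs tested, 27.2% passed it at an adjusted p under 0.05.

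These families are old: miR-99a, miR-99b and miR-100 are close relatives of miR-10, and miR-125a and miR-125b are the vertebrate relatives of lin-4, the first miRNA found in Caenorhabditis elegans. In mammals their genes lie in 3 paralogous clusters, each of which joins a miR-99/100 gene, a let-7 gene and a miR-125 gene on 1 strand. A hairpin gives 2 arms, 5p and 3p, and the 5p arms are the usual guide strands that enter the silencing complex. The seed, bases 2 to 8 of the mature miRNA, is the part that pairs with target mRNAs. miR-99 and miR-100 are known regulators of the mTOR and insulin-like growth factor receptor pathway, and let-7 and miR-125 are known for their part in developmental timing and differentiation.

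The guide strands that the results turn on are shown from 5′ to 3′ with the seed in capitals, since the 3 miR-99/100 guides can be told apart only outside it. The sequences and their positions (GRCm38.p6, plus strand in every case) are those of RefSeq, in which all 10 members were matched.
miR-100-5p, chr9:41531437-41531458: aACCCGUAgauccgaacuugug
miR-99a-5p, chr16:77598940-77598961: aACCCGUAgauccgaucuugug
miR-99b-5p, chr17:17830194-17830215: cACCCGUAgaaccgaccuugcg
miR-125b-5p, chr9:41581940-41581961 and chr16:77646279-77646300: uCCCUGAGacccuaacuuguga
miR-125a-5p, chr17:17830817-17830840: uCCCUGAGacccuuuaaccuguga
The seed ACCCGUA was held by these 3 guides and by no other mature mouse miRNA of the reference table. miR-99a-5p and miR-100-5p differ by the single substitution U16A, written with the base of miR-99a-5p first, the position counted from the 5′ end, and the base of miR-100-5p last. From miR-100-5p to miR-99b-5p the substitutions are A1C, U11A, A16C and U21C. The guides of miR-125b and miR-125a are alike over their first 13 bases and have lengths of 22 and 24 bases. Their seed CCCUGAG is held by 5 mature miRNAs of the table, among them miR-351-5p, which was tested, and miR-6367 and miR-6394, which were not.

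The minor arms are shown because the called differences also involve them, and because they separate loci whose guides are nearly alike or identical.
miR-100-3p, chr9:41531471-41531492: aCAAGCUUgugucuauagguau
miR-99a-3p, chr16:77598977-77598997: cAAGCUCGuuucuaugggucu
miR-99b-3p, chr17:17830232-17830253: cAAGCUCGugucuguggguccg
miR-125b-1-3p, chr9:41581980-41582001: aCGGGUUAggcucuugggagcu
miR-125b-2-3p, chr16:77646318-77646339: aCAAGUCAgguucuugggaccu
miR-99a-3p and miR-99b-3p share the seed AAGCUCG and differ by U10G, A14G and U21C, with the base of miR-99a-3p first. The 3p arms of miR-100 and of both miR-125b genes have seeds of their own. miR-125b-5p is made from 2 loci with the same mature sequence, so its count cannot be assigned to chromosome 9 or 16, and only miR-125b-1-3p and miR-125b-2-3p mark the locus.

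On chromosome 9, Mir100, Mirlet7a-2 and Mir125b-1 lie within 50.6 kb in introns of the noncoding genes 3110039I08Rik and Gm49317 of the same strand. There Mir100 also overlaps an exon of the antisense gene Gm48742, and Mir125b-1 an exon of the sense-intronic gene Gm28119 (GENCODE annotation of GRCm38). On chromosome 16, Mir99a, Mirlet7c-1 and Mir125b-2 lie within 47.4 kb in introns of Mir99ahg, the host gene named after miR-99a. Mir99a and Mirlet7c-1 also lie in intronic sequence of Gm11146, a protein-coding gene of the opposite strand. The cluster on chromosome 17 is compact: Mir99b, Mirlet7e and Mir125a lie within 0.686 kb in Spaca6, a gene for a sperm membrane protein. Mir99b and Mirlet7e are intronic there, whereas Mir125a overlaps an annotated exon.

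Libraries held between 20385384 and 23214934 counts of mature and hairpin miRNAs in DP and between 20599231 and 23187920 in DR mice. All values per mouse are CPM, counts relative to library size after TMM scaling. Each library carries a number in its label whose meaning is not given: 10 DP and 6 DR libraries have a number below 200, and 5 DP and 8 DR libraries one of 200 or above. Both parts were therefore also analysed apart. No pair of libraries of a group agreed within sampling noise. Marker miRNAs of endothelium (miR-126a, 2 of 2) and of smooth muscle (miR-143-3p and miR-145a-5p, 2 of 2) were lower in DP mice at an adjusted p under 0.05 (edgeR quasi-likelihood test), with summed levels of 55439 to 79477 CPM in DP against 69416 to 99146 CPM in DR mice for endothelium, and of 20398 to 29563 and 28076 to 42029 CPM for smooth muscle. Of 4 leukocyte markers 3 were higher and 1, miR-150-5p, was lower. Their summed level was nonetheless lower in DP mice, at 4196 to 6308 CPM (median 5084) against 5293 to 8635 CPM (median 6879) in DR mice. Of 2 fibroblast markers 1 was higher, with summed levels of 847 to 1625 CPM in DP and 657 to 1175 CPM in DR mice. No defining marker was at 0 in every library. Their part in the differences described here was not tested, and in whole tissue fewer cells of a type cannot be told apart from less miRNA per cell.

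By level, the 10 mature members ran from 23565 CPM for miR-99a-5p, rank 6 of the 574 mature miRNAs tested, to 7.90 CPM for miR-99a-3p (means over 29 mice). The guides came first: miR-99b-5p had 6973 CPM, miR-100-5p 2903 CPM, miR-125b-5p 1333 CPM and miR-125a-5p 596 CPM. The 3p arms followed, with miR-99b-3p at 49.9 CPM, miR-125b-1-3p at 19.2 CPM, miR-100-3p at 15.3 CPM and miR-125b-2-3p at 8.99 CPM. This order held between neighbours in 28 or 29 of the 29 libraries, except that miR-125b-1-3p exceeded miR-100-3p in 22 of them and miR-125b-2-3p exceeded miR-99a-3p in 18, so these neighbours were not separated beyond their spread. The members together took a median of 6.86% of all mature counts in DP and 6.22% in DR mice. miR-99a-5p alone took 4.58% and 4.09%, although its CPM after TMM scaling did not pass the test between groups. Such a share also depends on the counts of all other mature miRNAs in a library and is not corrected by TMM scaling. It therefore does not show that the members were higher in DP mice. Mature miRNAs are of nearly one length, but adapter ligation differs between sequences, so a level read between miRNAs is a share of reads and not of molecules.

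**Figure D1:**
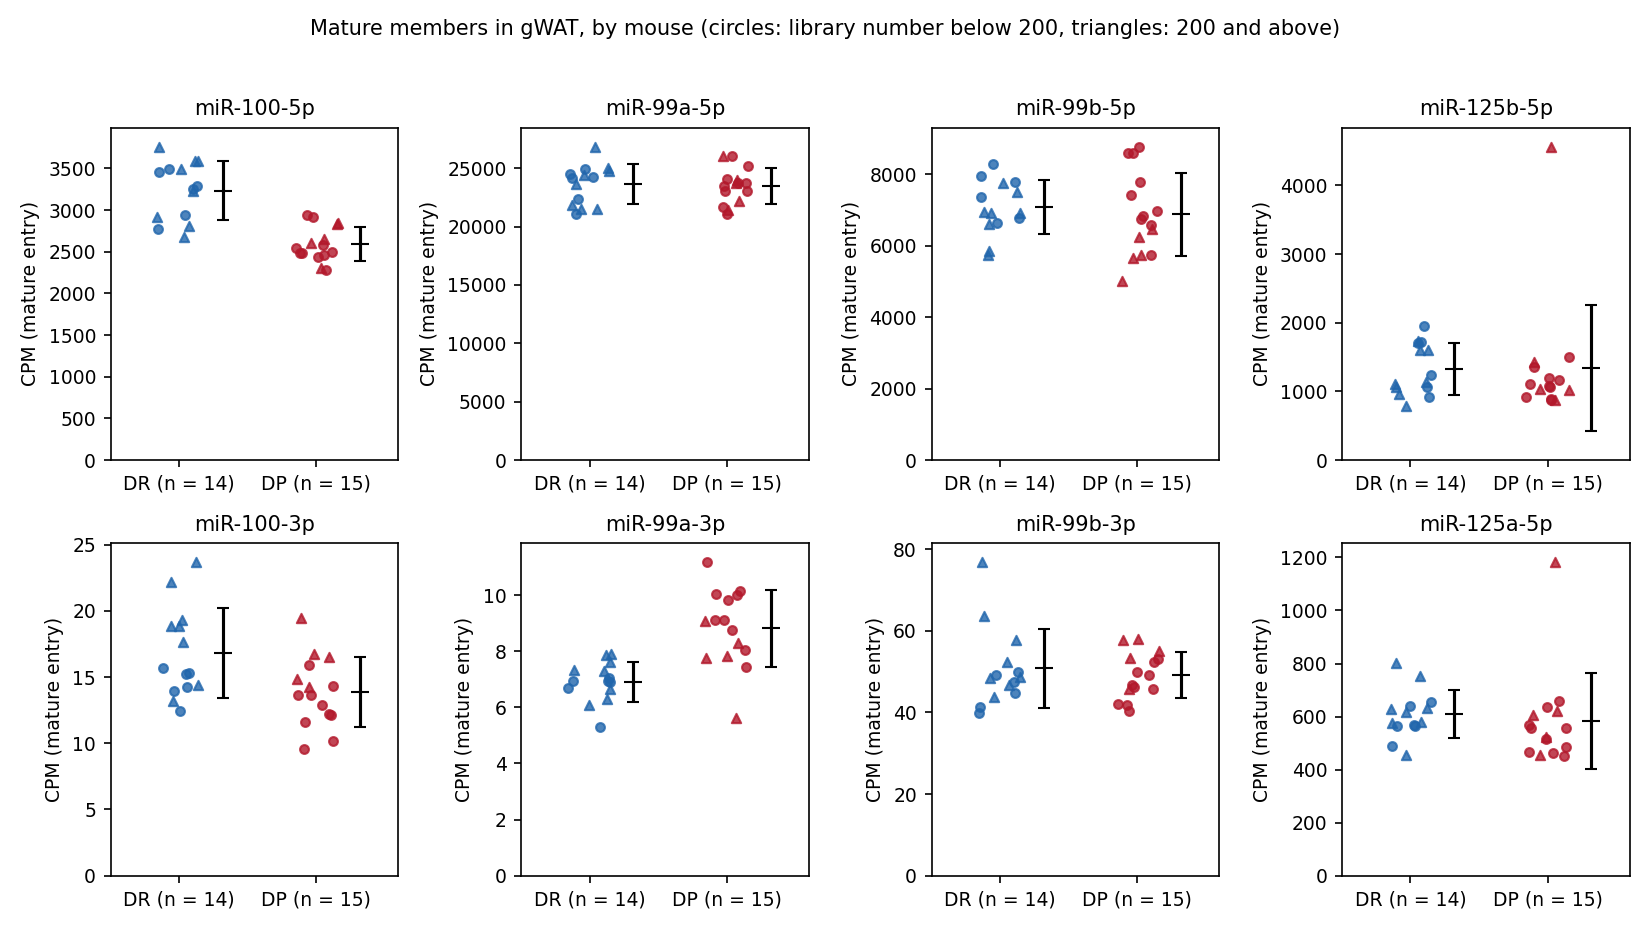
CPM of 8 mature members in gWAT, 1 point per mouse on linear axes that start at 0, for 14 DR and 15 DP mice, with the mean and SD of each group as a black bar beside the points. miR-100-5p lay lower and miR-99a-3p higher in DP mice, miR-99a-5p had a similar range in both groups, and 1 DP mouse stood far above the rest for miR-125b-5p (4566 CPM) and miR-125a-5p (1182 CPM).

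Which members differed between DP and DR mice was tested with the quasi-likelihood test of edgeR and Benjamini-Hochberg adjustment over 1162 mature and hairpin entries. Of the 10 mature members, 1 was higher and 2 were lower in DP mice at an adjusted p under 0.05, and 7 did not pass. Of all 1162 entries 25.9% were called. Over the 574 mature miRNAs tested it was 27.2%, made up of 15.3% higher and 11.8% lower in DP mice, so the share of members called was near that of mature miRNAs in general. The 10 hairpin entries gave the same counts, 1 higher, 2 lower and 7 that did not pass, against 24.7% called among 588 hairpin entries. The median log2 fold change of the mature members was -0.02, against 0.02 over all mature miRNAs tested, and the median absolute value was 0.11 against 0.23. All 20 entries of the members passed the filter on low counts.

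miR-100-5p, the guide of the cluster on chromosome 9, ranged from 2282 to 2941 CPM in DP mice (median 2551) and from 2677 to 3764 CPM in DR mice (median 3276). All 15 DP mice lay below the DR median and 11 lay below every DR mouse. The mean was 2593 ± 208 CPM in DP against 3235 ± 353 CPM in DR mice (SD, n = 15 and 14), a fold of 0.802 (adjusted p = 3.45e-05, edgeR quasi-likelihood test). Its hairpin entry fell by a log2 value of 0.31, from 1550 ± 114 to 1249 ± 111 CPM (adjusted p = 8.87e-06, same test). Leaving out any 1 of the 29 libraries kept both calls. The difference was -0.31 in the libraries below 200 (adjusted p = 0.00234) and -0.24 in those of 200 and above, where it did not pass (adjusted p = 0.186, edgeR), nor did the hairpin entry there (-0.23, adjusted p = 0.0769). The difference between the parts was itself small, 0.02 ± 0.11 (SE, unadjusted p = 0.846, edgeR).

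miR-100-3p, the minor arm of the same hairpin, ranged from 9.60 to 19.5 CPM in DP mice (median 13.7) and from 12.5 to 23.7 CPM in DR mice (median 15.5). The groups overlapped broadly, with 10 of 15 DP mice inside the DR range and 5 below it. Its log2 fold change was -0.28 ± 0.10 (SE), close to that of the guide, with an adjusted p of 0.0476 (edgeR quasi-likelihood test). This mature call was lost when any of 15 libraries was left out (DP replicates 3 to 10 and 12, DR replicates 4, 7, 9, 12, 13 and 14), with an adjusted p of up to 0.0848. The hairpin entry, at -0.26 ± 0.080 (SE, adjusted p = 0.0161, edgeR), kept its call without any 1 library, with an adjusted p of up to 0.0408. It lost the call within either part alone. Each library held only 234 to 458 mature counts of this arm.

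miR-99a-5p, the most abundant member, ranged from 21065 to 26044 CPM in DP mice (median 23749) and from 21089 to 26862 CPM in DR mice (median 24171). The ranges were nearly the same, and 14 of 15 DP mice lay inside that of the DR mice. The 95% interval of its log2 fold change ran from -0.08 to 0.07 (adjusted p = 0.913, edgeR quasi-likelihood test), which leaves out the size of the difference seen for miR-100-5p. It was also the member with the smallest spread between mice, with a coefficient of variation of 6.49% in DP and 7.18% in DR mice. When the counts of miR-99a-5p and miR-100-5p were added as 1 feature, the difference was -0.05 ± 0.046 (SE, adjusted p = 0.491, edgeR), so the sum over the pair did not pass.

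miR-99a-3p, the other arm of that hairpin, ranged from 5.61 to 11.2 CPM in DP mice (median 9.09) and from 5.28 to 7.90 CPM in DR mice (median 6.93). Of the DP mice, 14 of 15 lay above the DR median and 11 lay above every DR mouse. The mean was 8.82 ± 1.38 CPM in DP against 6.91 ± 0.710 CPM in DR mice (SD, n = 15 and 14), with an adjusted p of 8.99e-04 (edgeR quasi-likelihood test). Its hairpin entry rose by 0.28 ± 0.055 on the log2 scale (33.0 to 46.1 CPM in DP mice, 27.4 to 36.7 CPM in DR mice, adjusted p = 2.21e-04, same test), and all 15 DP mice lay above the DR median. Both calls held without any 1 library. The mature difference was 0.50 in the libraries below 200 (adjusted p = 0.00188) and 0.17 in those of 200 and above (adjusted p = 0.493, edgeR), where the hairpin entry was at 0.24 and did not pass either (adjusted p = 0.109). The test of the difference between the parts gave -0.38 ± 0.15 (SE), with an unadjusted p of 0.0141 and an adjusted p of 0.784; 0 of 1162 entries passed this test and 72 had an unadjusted p under 0.05. With 119 to 275 counts per library, counting error alone was up to 9.17% of a value.

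**Figure D2:**
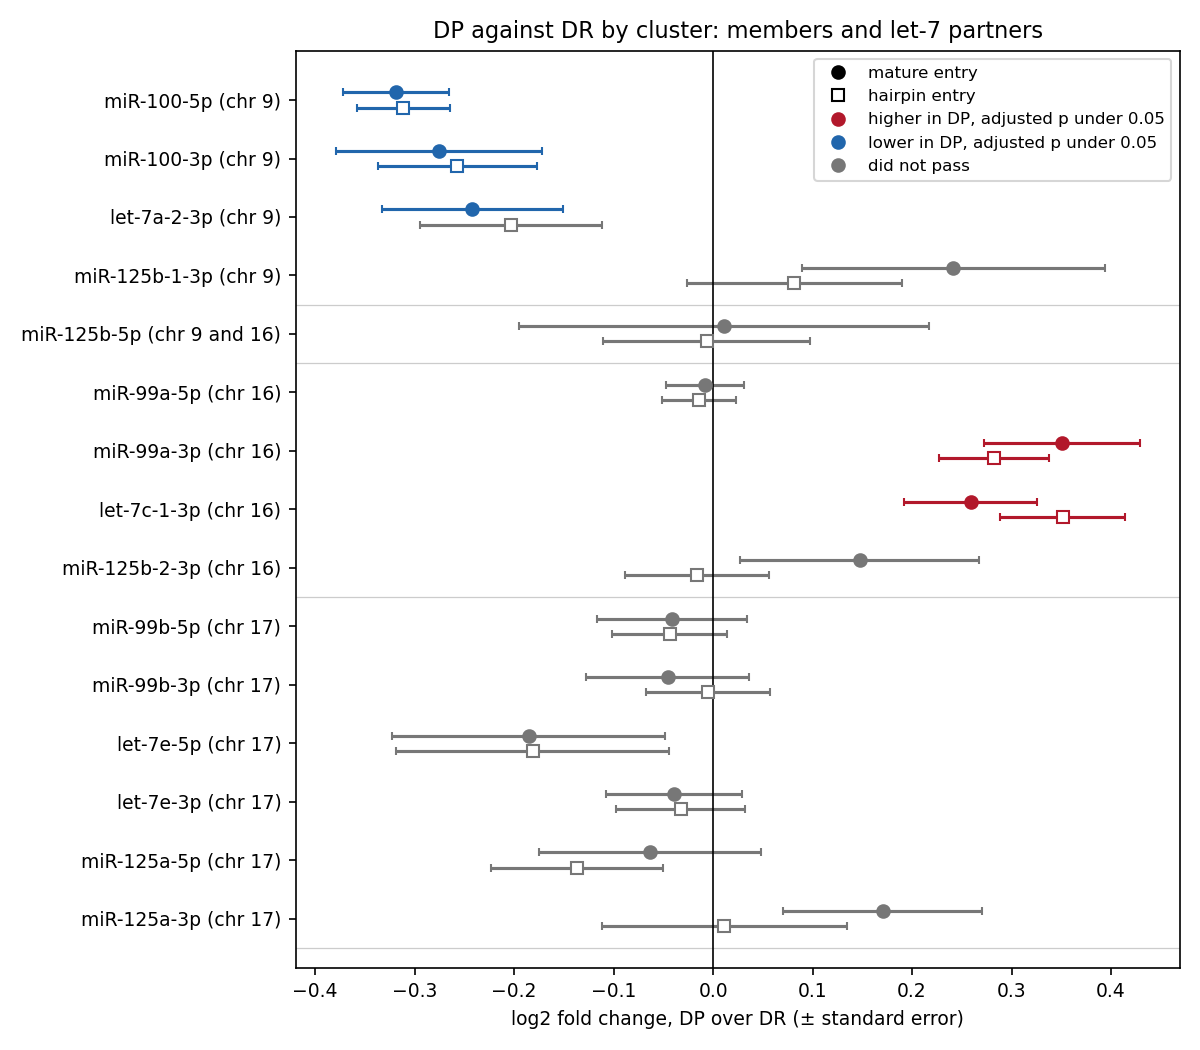
Log2 fold change of DP over DR mice with its standard error, by cluster, for the mature (circles) and hairpin (squares) entries of the members and of the let-7 arms and miR-125a-3p. Entries of Mir100 lie near -0.3, miR-99a-3p and let-7c-1-3p near 0.3, and the entries of the cluster on chromosome 17 were not called.

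The third gene of the family, Mir99b, showed no called difference in either arm. miR-99b-5p ranged from 5009 to 8774 CPM in DP mice (median 6740) and from 5743 to 8298 CPM in DR mice (median 6932), and its log2 fold change was -0.04 ± 0.075 (SE, 95% interval -0.19 to 0.11, adjusted p = 0.728, edgeR quasi-likelihood test). It varied more among DP mice (coefficient of variation 16.9%) than among DR mice (10.6%). miR-99b-3p ranged from 40.3 to 58.0 CPM in DP against from 39.9 to 76.8 CPM in DR mice, with a log2 fold change of -0.05 ± 0.082 (SE, adjusted p = 0.719, same test). Every DP mouse lay inside the DR range for miR-99b-3p.

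Ratios of 2 counts within a library do not depend on how libraries were scaled. For each of 8 ratios fixed by arm or by paralog, the mean log2 ratio was compared by a two-sided permutation test with 100000 permutations and adjustment over the 8. In all, 4 ratios differed between DP and DR mice, each of them with miR-100 or miR-99a-3p in it. These 4 share arms with each other, so they are not separate results, and each includes an arm called above. The share of all pairs of miRNAs that would pass this test is not given here. The count can therefore not be read as particular to the members.

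The ratio of miR-99a-5p to miR-100-5p separated the groups completely. On the log2 scale it ran from 3.08 to 3.36 in DP mice and from 2.73 to 3.01 in DR mice. The means were 3.18 ± 0.078 and 2.87 ± 0.077 (SD), a difference of 0.31 ± 0.029 (SE, adjusted permutation p = 8.00e-05). The unadjusted permutation p was 1.00e-05, the smallest the 100000 permutations allow. Of all 164451 pairs of tested mature miRNAs, 0.234% had log2 ratios whose groups did not overlap. That background holds pairs of every abundance, including miRNAs of low count with larger counting errors. It is therefore not the share among pairs as abundant as these 2 guides. The hairpin entries of the same names gave it again, with 2.49 to 2.78 for DP mice and 2.20 to 2.45 for DR mice, where 0.271% of all pairs of hairpin entries did not overlap. The difference in this ratio was 0.32 in the libraries below 200 (adjusted permutation p = 9.87e-04). At 200 and above it was 0.28 (adjusted permutation p = 0.00656). That the groups did not overlap within either part follows from their separation over all libraries and adds nothing to it.

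**Figure D3:**
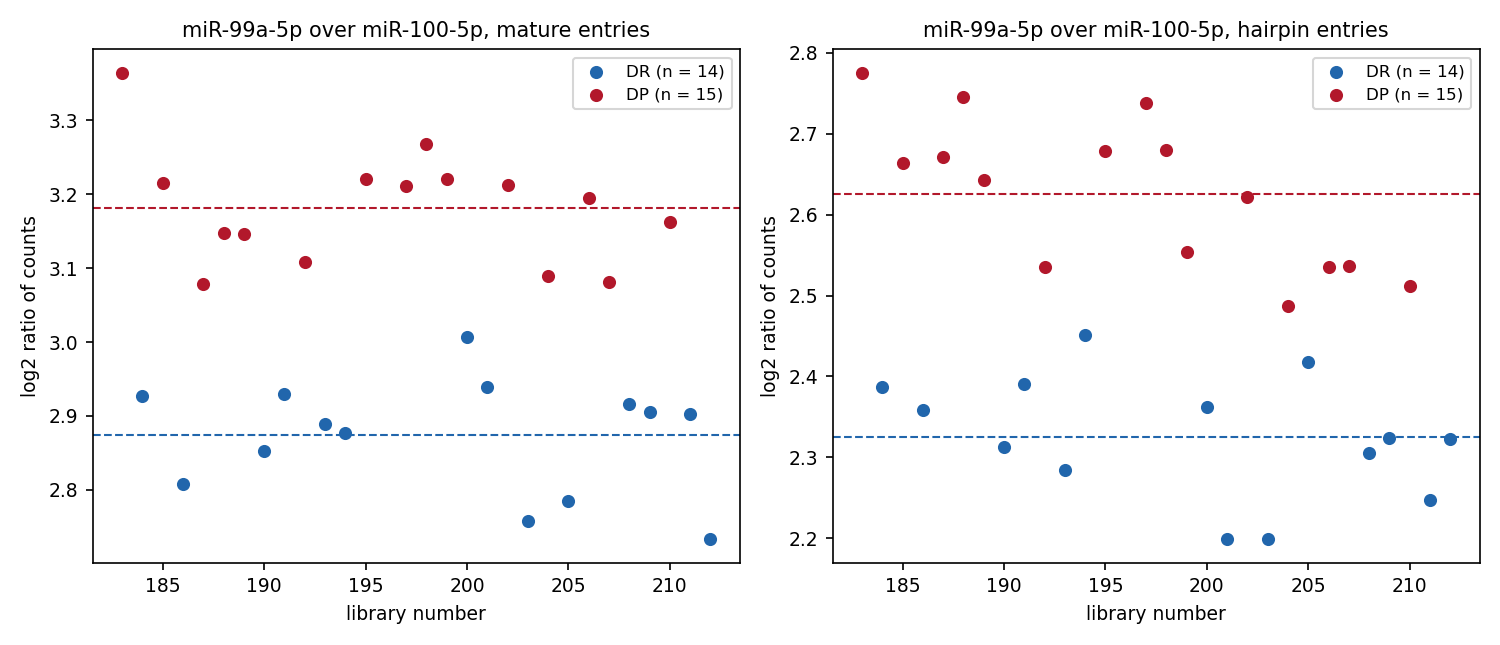
Log2 ratio of miR-99a-5p to miR-100-5p counts in each library, against the library number, for mature entries (left) and hairpin entries (right), with 14 DR and 15 DP mice and dashed lines at the group means. Every DP mouse lies above every DR mouse in both panels, over the whole run of library numbers.

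The 2 guides nonetheless varied together from mouse to mouse. Over the 29 libraries, with the group means removed, the log2 CPM of miR-99a-5p and miR-100-5p had a Pearson r of 0.84 and a Spearman rho of 0.87 (permutation p = 1.00e-05 for each, the smallest the permutations allow; adjusted over 3 pairs 3.00e-05). Without the 2 libraries farthest from the median, r was 0.84, and it was 0.74 within DP and 0.92 within DR mice. The pairing with miR-99b-5p was looser, with r of 0.23 for miR-99a-5p (adjusted permutation p = 0.331) and 0.04 for miR-100-5p (adjusted permutation p = 0.823). These 3 pairs were chosen after the values had been seen. How reads that match both miR-99a-5p and miR-100-5p were assigned is not stated, and the part of read assignment in their shared variation was not tested.

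Among the ratios between the arms of 1 hairpin, only that of Mir99a passed. For Mir99a, 1 count of the 3p arm went with 2687 counts of the 5p arm in DP and with 3416 in DR mice, a difference in log2 ratio of 0.35 ± 0.082 (SE, adjusted permutation p = 5.60e-04), and 14 of 15 DP mice lay above the DR median. In the hairpin entries it was 0.29 ± 0.048 (adjusted permutation p = 4.00e-05, 15 of 15 DP mice above the DR median). It did not pass in the mature entries of the libraries of 200 and above, at 0.11 ± 0.12 (adjusted permutation p = 0.590). The arm ratio of Mir100 did not pass, with 189 counts of the 5p arm per 3p count in DP and 195 in DR mice and a difference of 0.04 ± 0.11 (SE, adjusted permutation p = 0.947). Neither did that of Mir99b, with 139 and 141 counts and a difference of 0.02 ± 0.11 (adjusted permutation p = 0.978).

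Between paralogs, miR-99a-3p over miR-100-3p showed the largest difference of the 8, with 0.639 counts per count in DP and 0.418 in DR mice (0.61 ± 0.13 on the log2 scale, SE, adjusted permutation p = 5.60e-04). In the libraries of 200 and above it was 0.27 ± 0.14 and did not pass (adjusted permutation p = 0.378). miR-99b-5p over miR-100-5p was 2.62 in DP and 2.19 in DR mice (0.26 ± 0.090, adjusted permutation p = 0.0156), and in the libraries of 200 and above it was 0.07 ± 0.13 (adjusted permutation p = 0.677). The ratio of miR-125a-5p to miR-125b-5p was 0.471 in DP and 0.472 in DR mice, and that of miR-125b-2-3p to miR-125b-1-3p 0.469 and 0.488, neither of which passed (adjusted permutation p = 0.978 and 0.947).

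**Figure D4:**
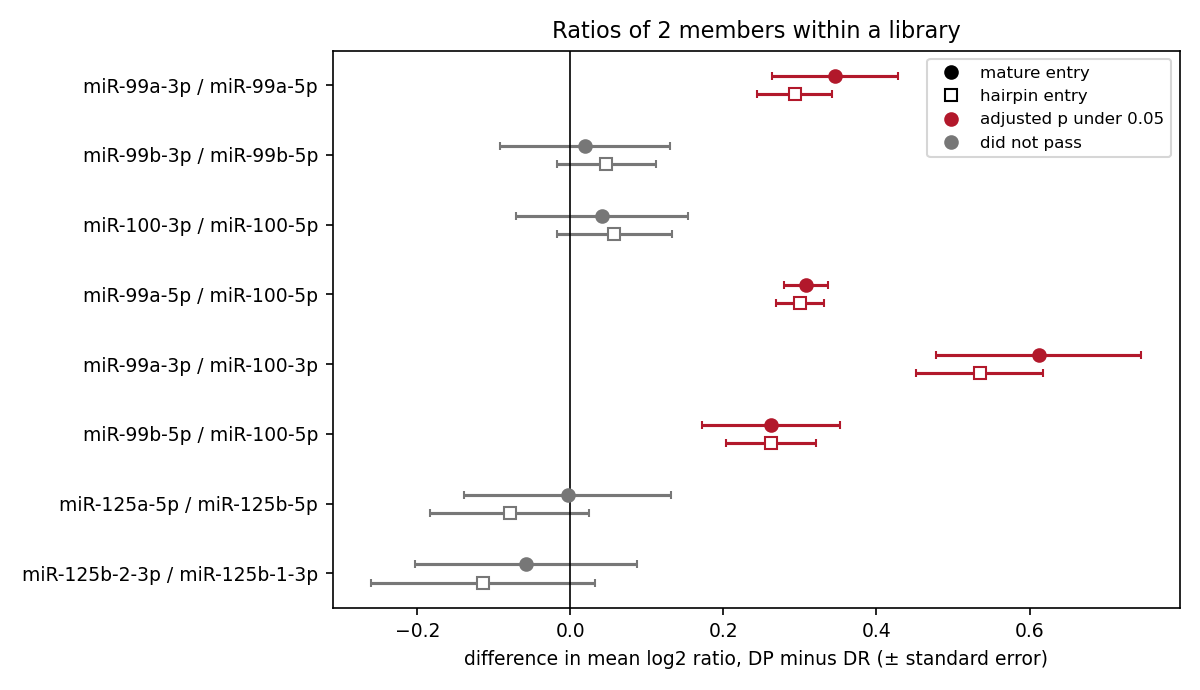
Difference between DP and DR mice in the mean log2 ratio of 2 members within a library, with its standard error, for mature (circles) and hairpin (squares) entries. The 4 ratios that passed in the mature entries also passed in the hairpin entries, and the ratios within Mir100, within Mir99b and within the miR-125 family lie near 0.

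Of the miR-125 family, none of the mature entries passed the test between DP and DR mice. miR-125b-5p, the guide made from chromosomes 9 and 16, ranged from 867 to 4566 CPM in DP mice (median 1075) and from 788 to 1949 CPM in DR mice (median 1187). DP replicate 12 held the value of 4566 CPM, from 101761 counts, and also the highest miR-125a-5p, at 1182 CPM. The log2 fold change was 0.01 ± 0.21 (SE, adjusted p = 0.969, edgeR quasi-likelihood test), and without that library it was -0.26 (adjusted p = 0.129). The direction turned between the parts of the library numbers, with -0.35 below 200 (adjusted p = 0.109) and 0.58 at 200 and above (adjusted p = 0.458), the part that holds DP replicate 12. The test of that difference gave 0.87 ± 0.39 (SE, unadjusted p = 0.0351, adjusted p = 0.784, edgeR). In the hairpin entry the same library was highest as well, at 4262 CPM, and the fold change was -0.01 ± 0.10 (adjusted p = 0.966, edgeR).

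miR-125a-5p ranged from 451 to 1182 CPM in DP mice (median 556) and from 456 to 800 CPM in DR mice (median 599), with a log2 fold change of -0.06 ± 0.11 (SE, adjusted p = 0.716, edgeR quasi-likelihood test). Its hairpin entry ranged from 7527 to 10497 CPM in DP mice (median 8435) and from 4556 to 12026 CPM in DR mice (median 9625), at -0.14 ± 0.086 (adjusted p = 0.252). The lowest value belonged to DR replicate 2. Without that library the hairpin entry passed the test, at -0.19 with an adjusted p of 0.00783 (edgeR), and its mature entry in that library was not low, at 568 CPM.

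The 3p arms of the miR-125b genes also did not pass. miR-125b-1-3p of chromosome 9 ranged from 5.22 to 28.5 CPM in DP mice (median 20.2) and from 9.29 to 23.5 CPM in DR mice (median 18.2), with a log2 fold change of 0.24 ± 0.15 (SE, adjusted p = 0.252, edgeR quasi-likelihood test). DP replicate 14 gave the lowest value, from 113 counts, and without it the difference was 0.30 and passed (adjusted p = 0.0322). It also passed in the libraries below 200 alone (0.32, adjusted p = 0.0459, edgeR), with 0.18 in the others (adjusted p = 0.843). In the hairpin entry, that library was not apart (45.0 CPM) and the difference was 0.08 ± 0.11 (adjusted p = 0.613). miR-125b-2-3p of chromosome 16 had 9.43 ± 2.05 CPM in DP against 8.51 ± 1.82 CPM in DR mice (SD), a log2 difference of 0.15 ± 0.12 (SE, adjusted p = 0.386, edgeR).

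For each name the table holds a mature and a hairpin entry, and the share of the 2 that was mature differed widely by member. Taken from the mean log2 ratio of mature to hairpin counts, the mature share in DP mice was 79.9% for miR-99b-5p, 75.3% for miR-99a-5p and 67.5% for miR-100-5p. For miR-99b-3p it was 49.5%, for miR-125b-2-3p 18.9% and for miR-125a-5p 6.23%. Guides of the miR-99/100 family were thus mostly counted as mature, while miR-125a-5p, with 583 CPM mature and 8523 CPM hairpin in DP mice, was mostly counted under its hairpin. How the authors divided reads between mature and hairpin entries is not stated, and what sets the share was not tested. The ratio of mature to hairpin counts differed between DP and DR mice for 0 of 10 members (two-sided permutation tests, 0 of 10 with an unadjusted p under 0.05, smallest 0.0516 for miR-125b-2-3p).

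**Figure D5:**
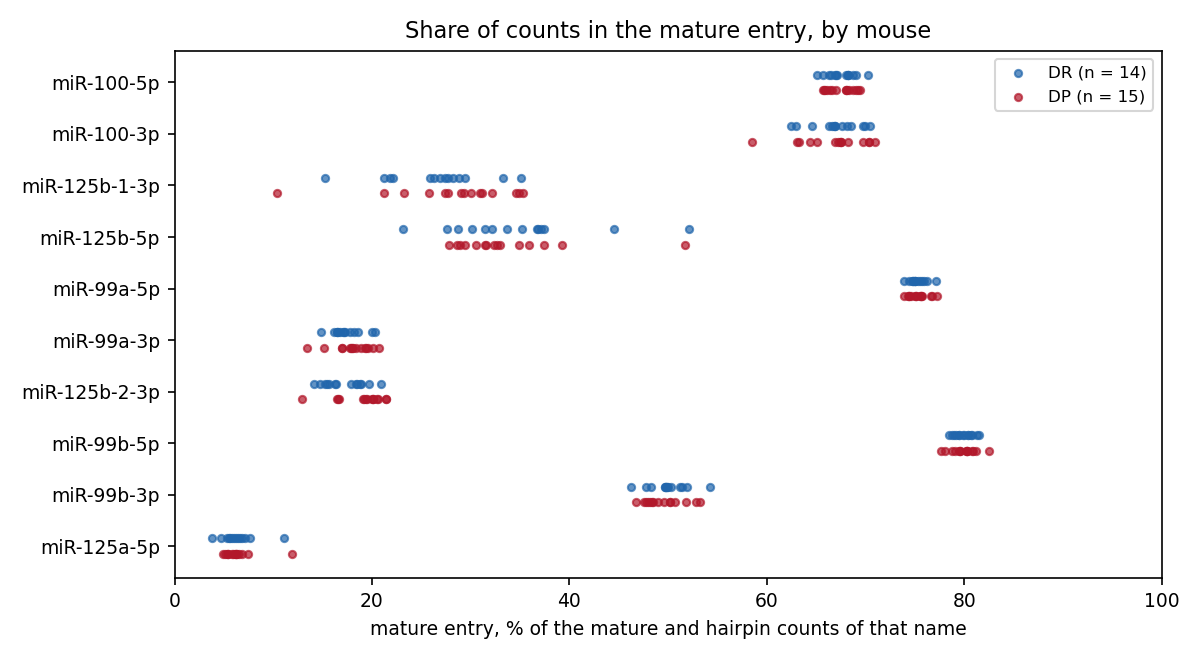
Mature counts as a percentage of the mature and hairpin counts of the same name, 1 point per mouse, for the 10 members in 14 DR (upper row of each pair) and 15 DP mice (lower row). The share separates the members, from about 6% for miR-125a-5p to 80% for miR-99b-5p, and the groups overlap for each.

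The let-7 genes share the clusters, and let-7, best known as a brake on growth and pluripotency genes, is among the most abundant miRNAs of adult tissues. Of the 10 mature partners and relatives, 1 was higher in DP mice, 4 were lower and 5 did not pass (edgeR quasi-likelihood test, against 27.2% called over all mature miRNAs). On chromosome 16, let-7c-1-3p, the minor arm next to Mir99a, ranged from 5.72 to 8.56 CPM in DP mice (median 7.46) and from 4.76 to 7.24 CPM in DR mice (median 6.21). It rose with a log2 fold change of 0.26 ± 0.067 (SE, adjusted p = 0.00384), and 9 of 15 DP mice lay above every DR mouse. Its hairpin entry rose by 0.35 ± 0.063 (adjusted p = 8.01e-05), so that the minor arms of both neighbouring genes were higher, while miR-125b-2-3p at the far end of that cluster did not pass. The mature difference of let-7c-1-3p was 0.35 in the libraries below 200 (adjusted p = 0.00226) and 0.11 in those of 200 and above (adjusted p = 0.656), and the hairpin entry at 0.30 did not pass in the latter (adjusted p = 0.141, edgeR). Between the parts the mature difference changed by -0.29 ± 0.11 (SE, unadjusted p = 0.0186, adjusted p = 0.784, edgeR).

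On chromosome 9, let-7a-2-3p, which lies between Mir100 and Mir125b-1, was lower with a log2 fold change of -0.24 ± 0.091 (SE, adjusted p = 0.0499, edgeR quasi-likelihood test). Its 42 to 77 counts per library left a wide error, the call was lost in 18 of 29 fits that left out 1 library, and the hairpin entry did not pass (-0.20, adjusted p = 0.0996). let-7c-5p, a guide from more than 1 locus that includes Mirlet7c-1, ranged from 35215 to 72493 CPM in DP mice (median 43951) and from 45769 to 74265 CPM in DR mice (median 55508). It was lower by a log2 fold change of -0.26 ± 0.096 (adjusted p = 0.0476), a call lost in 11 of the 29 fits, while its hairpin entry at -0.30 kept the call in all 29. Both calls were lost in the libraries of 200 and above, where the mature entry was at -0.02 (adjusted p = 0.962) and the hairpin entry at -0.10 (adjusted p = 0.779). With the part as a term the mature entry was at -0.18 and did not pass (adjusted p = 0.0666, edgeR). let-7a-5p was at -0.24 ± 0.10 and did not pass (adjusted p = 0.0835), except without DR replicate 5, DP replicate 11 or DP replicate 14, when the adjusted p fell to as low as 0.0120. The hairpin entry of let-7a-5p was lower, at -0.28 ± 0.093 (SE, adjusted p = 0.0222, edgeR), and kept the call in all 29 fits. In the libraries of 200 and above this hairpin entry was at -0.06 and did not pass (adjusted p = 0.906, edgeR). On chromosome 17, neither let-7e-5p (-0.19 ± 0.14, adjusted p = 0.332) nor let-7e-3p (-0.04 ± 0.069, adjusted p = 0.712) passed, as was the case for Mir99b and Mir125a beside it.

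The miR-10 guides are the closest relatives of the miR-99/100 family outside it, but have another seed. miR-10b-5p ranged from 6202 to 10220 CPM in DP mice (median 8230) and from 8627 to 13971 CPM in DR mice (median 11643), a log2 fold change of -0.50 ± 0.080 (SE, adjusted p = 1.69e-05, edgeR quasi-likelihood test), and 9 of 15 DP mice lay below every DR mouse. miR-10a-5p had a log2 fold change of -0.29 ± 0.051 (adjusted p = 5.74e-05), with 13 of 15 DP mice below every DR mouse. Neither passed in the libraries of 200 and above alone, where miR-10b-5p was at -0.28 (adjusted p = 0.205) and miR-10a-5p at -0.14 (adjusted p = 0.206), against -0.56 and -0.36 below 200 (edgeR). miR-351-5p, which carries the miR-125 seed, was at 0.22 ± 0.12 and did not pass (adjusted p = 0.169). It passed with the part of the library numbers as a term (0.31, adjusted p = 0.0418) and in the libraries below 200 alone (0.49, adjusted p = 0.0253, edgeR). miR-125a-3p, at 0.17 ± 0.100, did not pass (adjusted p = 0.214), but did below 200 (0.25, adjusted p = 0.0468, against -0.06 and an adjusted p of 0.904 at 200 and above).

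Whether arms of a cluster varied together was asked for 9 pairs of arms that mark their locus, over the 29 libraries with the group means removed. Only miR-99b-5p with let-7e-5p passed, and in the negative direction, with a Pearson r of -0.62 and a Spearman rho of -0.57 (adjusted permutation p = 0.0105 and 0.0193). It was -0.50 without the 2 libraries farthest from the median of miR-99b-5p, -0.70 within DP and -0.41 within DR mice. This relation did not hold up once values were also centred on the 2 parts of the library numbers, where r was -0.34 (adjusted permutation p = 0.714). As a description, the 9 pairs within clusters had r from -0.62 to 0.38 (median 0.13) and the 27 pairs between clusters r from -0.62 to 0.60 (median -0.02), all from the same libraries. miR-99a-3p with let-7c-1-3p, both higher in DP mice, had r of 0.38 and rho of 0.46 (adjusted permutation p = 0.207 and 0.0916), r of 0.51 without the 2 farthest libraries, and r of 0.11 after centring on the parts. It did not pass.

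Among 257 other mature miRNAs with a mean of at least 10 CPM, those whose group-centred log2 CPM over the 29 libraries was most like that of miR-100-5p were miR-10b-5p (r = 0.65), miR-138-5p (r = 0.62) and miR-135a-5p (r = 0.61). All 3 were also lower in DP mice, with log2 fold changes of -0.50, -0.27 and -1.05 (adjusted p = 1.69e-05, 0.00710 and 1.87e-07, edgeR quasi-likelihood test). Over all mature miRNAs tested, 11.8% were lower in DP mice by the same test. For miR-99b-5p they were miR-328-3p (r = 0.73), let-7e-3p of its own cluster (r = 0.69) and miR-467d-5p (r = 0.69), none of which passed the test between groups. For miR-125b-5p they were miR-30d-5p (r = 0.75), miR-30c-5p (r = 0.73) and miR-500-3p (r = 0.62), of which miR-30c-5p was lower in DP mice (-0.70, adjusted p = 0.00445) and miR-500-3p higher (0.50, adjusted p = 0.0157). These values are descriptions of the same libraries, and DP replicate 12 takes part in those of miR-125b-5p.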

How the data were processed

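Small RNA of gWAT from 15 DP and 14 DR mice was sequenced on a BGISEQ-500 instrument after extraction with a miRNeasy kit. The authors used miRDeep2 for annotation; the build mm10 and the aligner Bowtie2 are credited to the submitters' notes on processing. The deposited table gives raw counts, not normalized, for each mouse. How reads with several matches were counted is not given in the sources used here. The 4 entries that name no RNA held a median of 8.39% of counts and were left out.

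Entries with a mean count above 10 were tested together in edgeR 4.0.16 (R 4.3.3) with TMM scaling, the quasi-likelihood F-test without covariates and Benjamini-Hochberg adjustment over 1162 entries. The study's own threshold is an unadjusted p under 0.05; here an entry rose, fell or was called at an adjusted p under 0.05. Standard errors of fold changes were taken from that fit as the fold change over the root of F, with normal 95% intervals. Ratios were taken with 0.5 added to each count. Permutation tests used 100000 two-sided permutations, within groups for correlations. Replicate numbers only name mice, and p-values set a difference or a correlation against the variation between these mice. Reads carry no molecular identifiers, so counting errors do not cover amplification. Sequences and positions came from RefSeq (GRCm38.p6) and host genes from GENCODE M21.

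The text names all members, the let-7, miR-10 and same-seed relatives, and for miR-100-5p, miR-99b-5p and miR-125b-5p the 3 most alike miRNAs. The members and lists were chosen with earlier results of these data known. Marker lists of skeletal muscle, liver, red cells, epithelium and brown fat gave 0, 0, 0, 0 and 1 markers higher and 0, 0, 0, 1 and 1 lower in DP mice. Alternatives were other scalings, filters and tests (DESeq2 1.42.0, limma-voom 3.58.1), library number in the fit or as a split, fits without miR-21a, and leaving out each library. The test between parts and library sizes from all named features were added after seeing the data. The fits were tested on simulated counts before use.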

Additional observations from a re-analysis of the deposited data

How the results depend on the processing

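No called member entry changed its direction in any fit; 69 sign changes occurred among entries that passed no test, in 10 entries, among them mature miR-125b-5p, which ran from -0.35 to 0.58 between the parts, and mature miR-125a-5p, from -0.11 to 0.17. In the libraries of 200 and above alone (5 DP and 8 DR mice), 0 mature members were higher and 0 lower, 0 hairpin members were higher and 0 lower, 0 of the let-7 partners and relatives passed, and 1 of 8 ratios passed, that of miR-99a-5p to miR-100-5p; in those below 200, 2 mature members were higher and 1 was lower, and 1 hairpin member was higher and 1 lower. With library totals, without a filter on low counts or without the miR-21a entries, 1 mature member was lower and 3 partners passed. With the library number as a term, either split at 200 or linear, 1 mature member was lower. The member lost in these fits was miR-100-3p. Leaving out 1 library gave 1 to 2 mature members higher, 1 to 2 lower and 3 to 6 partners called. Centring on the parts left 0 of 9 correlations within clusters. The share of all entries called in each of these fits is not given here. The counts of members gained or lost can therefore not be read as particular to the members. Where a fit leaves out libraries it has fewer samples. In the other cases the cause was not tested.

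No paired analysis was possible because the labels give each mouse a library number of its own and no number is shared between the groups. The median log2 fold change over all entries was 0.02 with TMM scaling and 0.09 with library totals, and no called member changed sign under either. With 42 to 653 counts per library, the minor arms of let-7a-2, miR-100, miR-99a and miR-125b are limited by depth more than the guides.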
